A study of Homo sapiens with 21 samples.

Results

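Of the 28808 genes in the deposited tables, 49 genes of the cell cycle and of DNA replication are described here, chosen by gene name. They comprise 23 genes of G1 and S phase (G1/S), 24 genes of G2 and mitosis (G2/M) and 2 inhibitors of cyclin-dependent kinases. Expression was measured by RNA sequencing in C3A cells, a clone derived from HepG2 human hepatoma cells and labelled wild type in every group. Cells were exposed for 48 h to glyphosate at 5.6 µM (0.95 µg/mL), a broad-spectrum herbicide; to AMPA at 34 µM (3.7 µg/mL), the main breakdown product of glyphosate; to 2,4-D at 2.5 µM (0.56 µg/mL), an auxin-like herbicide; to glyphosate+2,4-D; or to AMPA+2,4-D, the mixtures holding each compound at the same concentration. Each exposure gave 3 libraries, and unexposed cells gave 6. Every concentration was set far below the IC50, per the labels, which name no vehicle and no batch and do not state if replicates came from separate cultures. The p-values below therefore measure only the spread between these libraries, which may be technical.

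Cyclin-dependent kinases drive the cell cycle when bound to their cyclins. Cyclin D with CDK4 and cyclin E with CDK2 inactivate the retinoblastoma protein, which frees E2F factors to transcribe the genes that license and fire replication origins and that make deoxynucleotides. Genes of G2 and mitosis are transcribed later, through the CHR element that MuvB complexes with B-MYB and FOXM1 bind, and their products build the spindle, hold the checkpoint until chromosomes are attached and destroy cyclin B. Hepatocytes of the adult liver rarely divide, whereas hepatoma lines such as HepG2 proliferate in culture.

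Promoters were read from 250 bases before to 50 bases after the RefSeq start on build GRCh38.p14, and 39 of the 49 members had an entry. Both strands were searched for an E2F motif (TTTGGCGC, TTTCCCGC, TTTGCCGC or TTTCGCGC), for the CHR element (TTTGAA) and for the CCAAT box (CCAAT). The E2F motif lay in 12 of 18 G1/S promoters (66.7%) and in 2 of 19 G2/M promoters (10.5%), those of CDK1 and CENPA, against 3.31% of all 35116 promoters in the table. The CHR element lay in 1 of 18 G1/S promoters (5.56%), that of RRM1, and in 11 of 19 G2/M promoters (57.9%), against 15.2% of all promoters. The CCAAT box lay in 61.1% of G1/S promoters and in 78.9% of G2/M promoters, against 34.6% of all. A match describes the letters of the window and is not a measured binding site.

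The promoters of the 3 members with the largest differences in each phase among those with an entry are shown, with matches to the motifs in capitals, on the gene's strand. GINS2 (chr16:85688905-85689204, minus strand), E2F1 (chr20:33686336-33686635, minus strand) and MCM7 (chr7:100101348-100101647, minus strand) are G1/S genes. In MCM7 the E2F match nearest the start and a CCAAT box share a base. CDC20 (chr1:43358731-43359030, plus strand), CDK1 (chr10:60778081-60778380, plus strand) and PLK1 (chr16:23678639-23678938, plus strand) are G2/M genes.
GINS2: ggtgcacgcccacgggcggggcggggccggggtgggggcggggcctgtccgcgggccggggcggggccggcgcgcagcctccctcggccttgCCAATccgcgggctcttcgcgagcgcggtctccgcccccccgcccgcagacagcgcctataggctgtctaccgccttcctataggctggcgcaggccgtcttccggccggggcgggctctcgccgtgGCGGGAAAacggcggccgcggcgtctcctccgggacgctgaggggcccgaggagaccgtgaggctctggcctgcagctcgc
E2F1: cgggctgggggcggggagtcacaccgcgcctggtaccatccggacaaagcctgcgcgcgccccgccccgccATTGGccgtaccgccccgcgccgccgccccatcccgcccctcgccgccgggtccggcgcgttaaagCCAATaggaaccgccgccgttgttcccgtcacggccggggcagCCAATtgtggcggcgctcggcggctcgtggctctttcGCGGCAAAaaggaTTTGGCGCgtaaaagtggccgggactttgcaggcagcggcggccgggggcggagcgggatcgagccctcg
MCM7: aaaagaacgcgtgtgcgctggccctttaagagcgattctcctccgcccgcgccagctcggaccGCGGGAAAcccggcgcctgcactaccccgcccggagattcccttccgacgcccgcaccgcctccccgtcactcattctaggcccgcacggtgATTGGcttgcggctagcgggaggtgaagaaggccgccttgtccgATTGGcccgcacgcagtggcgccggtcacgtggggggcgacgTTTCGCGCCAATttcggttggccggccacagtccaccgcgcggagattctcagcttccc
CDC20: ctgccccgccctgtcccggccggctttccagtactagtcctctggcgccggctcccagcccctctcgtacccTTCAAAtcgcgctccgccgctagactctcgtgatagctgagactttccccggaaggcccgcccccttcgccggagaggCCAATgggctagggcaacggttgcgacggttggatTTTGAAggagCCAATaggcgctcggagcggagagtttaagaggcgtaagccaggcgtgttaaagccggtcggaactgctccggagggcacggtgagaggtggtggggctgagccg
CDK1: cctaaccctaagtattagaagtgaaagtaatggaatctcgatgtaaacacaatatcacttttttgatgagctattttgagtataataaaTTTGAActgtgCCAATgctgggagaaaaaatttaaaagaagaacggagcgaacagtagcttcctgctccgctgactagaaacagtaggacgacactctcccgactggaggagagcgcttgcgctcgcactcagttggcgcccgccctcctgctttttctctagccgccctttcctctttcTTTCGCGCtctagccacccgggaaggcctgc
PLK1: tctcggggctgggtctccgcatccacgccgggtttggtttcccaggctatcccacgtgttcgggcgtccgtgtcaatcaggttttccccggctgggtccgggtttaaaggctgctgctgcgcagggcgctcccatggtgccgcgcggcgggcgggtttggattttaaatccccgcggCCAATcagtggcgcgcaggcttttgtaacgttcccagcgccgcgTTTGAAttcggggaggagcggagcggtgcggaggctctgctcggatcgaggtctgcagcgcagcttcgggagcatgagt
All 3 G1/S windows hold the E2F motif and none of them the CHR element, and all 3 G2/M windows hold the CHR element with a CCAAT box.

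Depth, as whole reads recovered from the values, was 15.2 to 24.35 M in exposed cells and 17.41 to 19.77 M in unexposed cells. All 10 hepatocyte markers were present, ALB at 3693 to 4390 FPKM in exposed and 2249 to 4004 FPKM in unexposed cells. FPKM are read fragments scaled by transcript length and by library depth. Of 13 markers of fibroblasts, endothelium and blood, 8 were in the tables, of which LYZ, lysozyme, reached 473 to 625 FPKM in exposed and 324 to 615 FPKM in unexposed cells, PDGFRB reached 1.59 to 2.78 FPKM in exposed and 1.22 to 2.76 FPKM in unexposed cells, and the other 6 reached at most 0.199 FPKM. KDR, an endothelial receptor, was at 0 in every exposed library. Ribosomal protein genes took 9.14 to 10.2% of FPKM in exposed cells, 8.14 to 8.37% in unexposed replicates 4 to 6 and 7.16 to 7.36% in unexposed replicates 1 to 3, and the summed hepatocyte markers reached 9151 to 10708, 8136 to 9308 and 5641 to 6072 FPKM in the same sets. Counting strand is not stated, and exons of 7 members overlap those of a gene with FPKM at least 0.25 times their own, so their values are uncertain: CCNE2 (INTS8), TYMS (TYMSOS), CCNA2 (EXOSC9), CDC25C (FAM53C), KIF20A (BRD8 and CDC23) and FOXM1 (ITFG2) on opposite strands, and CENPA (SLC35F6) on the same strand. The part of the ribosomal and hepatocyte shifts in the differences below was not tested.

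The unexposed libraries fell into 2 sets by replicate number, and the cell cycle genes separated them. The summed FPKM of the 23 G1/S genes was 367 to 421 in the 15 exposed libraries, 354 to 373 in unexposed replicates 4 to 6 and 279 to 296 in unexposed replicates 1 to 3. The summed FPKM of the 24 G2/M genes was 190 to 232 in exposed libraries, 241.8 to 247 in unexposed replicates 4 to 6 and 176 to 200 in unexposed replicates 1 to 3. For G1/S genes every exposed library lay above replicates 1 to 3, and the exposed range overlapped that of replicates 4 to 6. For G2/M genes every exposed library lay below replicates 4 to 6, and the exposed range overlapped that of replicates 1 to 3. These are levels in bulk RNA, in which fewer cells of a phase and less RNA per cell cannot be told apart.

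**Figure D1:**
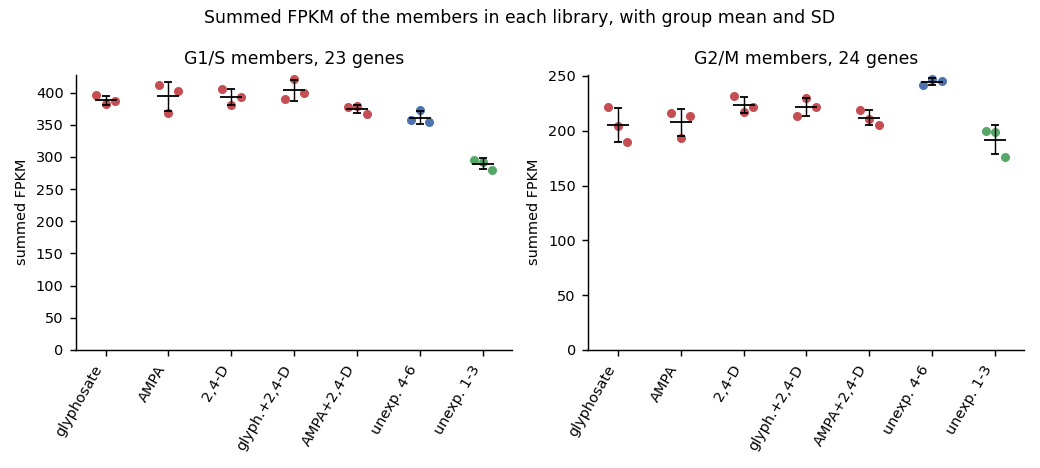
Summed FPKM of the 23 G1/S genes (left) and the 24 G2/M genes (right) in each library, with group mean and SD (bars, n = 3). The G1/S sums of all unexposed replicates 1 to 3 lie at or below 296, under every other library, while the G2/M sums of unexposed replicates 4 to 6 lie at or above 241.8, over every other library.

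Between the sets, all 3 of replicates 4 to 6 lay above all 3 of replicates 1 to 3 for 15 of 22 G1/S genes and 20 of 24 G2/M genes, against 22.9% of all 13405 genes tested. They lay below for 2 G1/S genes, CCND3 and CDK4, and for 0 G2/M genes, against 22.6% of all genes. The median difference on log2(FPKM + 1) was 0.41 for G1/S and 0.35 for G2/M genes, against 0.00 over all genes. CDT1, the licensing factor that loads the MCM helicase, showed the largest difference, 1.12, with 22.98, 23.9 and 22.1 FPKM in replicates 4 to 6 against 11.00, 10.03 and 9.14 FPKM in replicates 1 to 3. The split was known from earlier results on these libraries and no label explains it, so it is described without a test, and the counts of genes called are given against all 6 unexposed libraries and against either set. In the fit against all 6, these libraries form 1 group, so the gap between the sets counts as spread and enters the SE and the calls.

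The exposed libraries stood differently to the sets for G1/S and for G2/M genes, a description with no test of the difference. The 15 exposed libraries all lay above all 6 unexposed ones for 7 of 22 G1/S genes (CDK2, MCM3, MCM4, MCM7, GINS2, PCNA and RRM1) and for 1 of 24 G2/M genes (CDK1), against 13.8% of all genes. They lay below for 1 G1/S gene (CDK4), 2 G2/M genes (CDC20 and PLK1) and the inhibitor CDKN1B, against 11.6% of all genes. No member had all exposed libraries between the sets, against 0.783% of all genes. The median difference of exposed libraries from replicates 4 to 6 was 0.15 for G1/S and -0.18 for G2/M genes, and from replicates 1 to 3 it was 0.61 and 0.20, against 0.01 over all genes in either case. The sign of the G2/M median thus depended on the set.

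**Figure D2:**
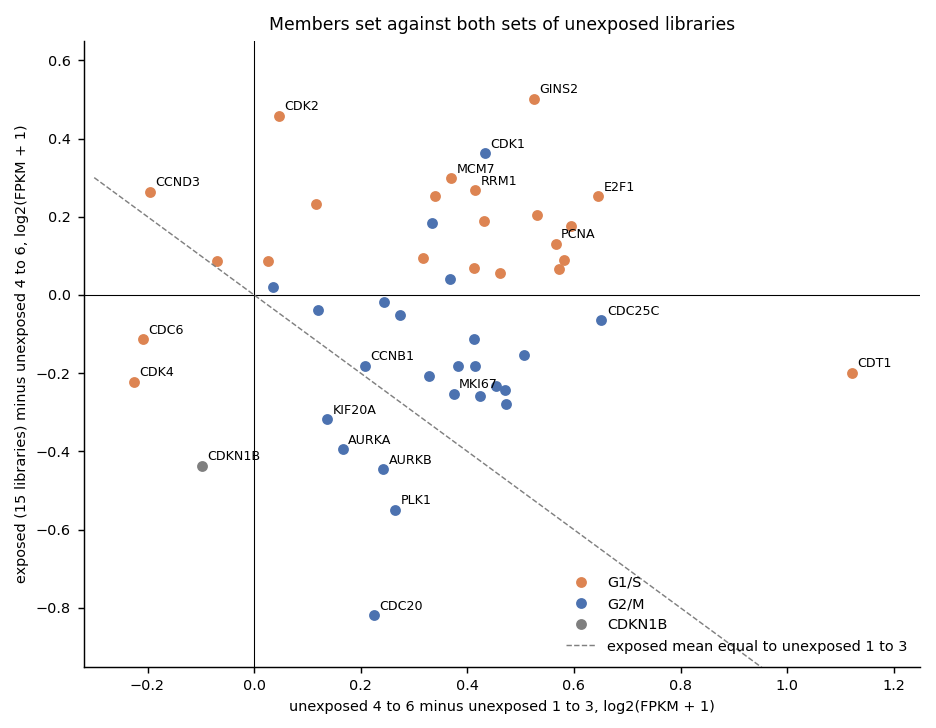
Each point is 1 of the 47 members tested. The x axis gives the difference of unexposed replicates 4 to 6 from replicates 1 to 3 and the y axis the difference of the 15 exposed libraries from replicates 4 to 6, both on log2(FPKM + 1); points on the dashed line have equal means in exposed cells and unexposed replicates 1 to 3. Most G1/S genes lie above 0 on the y axis and most G2/M genes below it, with CDC20 lowest at -0.82 and GINS2 highest at 0.50.

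More G1/S genes rose than fell in exposed cells. By limma on log2(FPKM + 1), at an adjusted p under 0.05 over all 13405 genes, 14 of 22 rose and 2 fell with glyphosate, 15 rose and 2 fell with AMPA, 15 rose and 1 fell with 2,4-D, 18 rose and 1 fell with glyphosate+2,4-D, and 10 rose and 2 fell with AMPA+2,4-D. Of all genes tested, 27.7%, 28.0%, 25.0%, 25.4% and 26.0% rose and 25.1%, 24.8%, 22.6%, 22.7% and 24.4% fell in the same 5 comparisons. The median log2 differences of the G1/S genes were 0.37, 0.38, 0.36, 0.42 and 0.25, against 0.00 to 0.01 over all genes. CDK2, CDC25A, MCM3, MCM4, MCM7, GINS2, PCNA, RRM1 and TYMS rose with every exposure, and CDK4 fell with every exposure. The 5 comparisons share the unexposed libraries.

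The number of G1/S genes that rose depended on the unexposed set. Against replicates 4 to 6, 12, 12, 11, 15 and 6 of 22 rose with glyphosate, AMPA, 2,4-D, glyphosate+2,4-D and with AMPA+2,4-D. There 27.0%, 27.3%, 24.6%, 24.7% and 25.9% of all genes rose, so the share with AMPA+2,4-D was near that of all genes. In the same comparisons 1 or 2 G1/S genes fell, where 23.6%, 23.3%, 21.3%, 21.3% and 23.4% of all genes fell. Against replicates 1 to 3, 17, 19, 18, 17 and 18 rose, where 29.4%, 30.0%, 27.6%, 27.9% and 28.1% of all genes rose, and 2 fell, where 27.2%, 27.5%, 25.9%, 26.1% and 26.1% of all genes fell. CDK2, MCM3, MCM7, GINS2 and RRM1 rose with every exposure against either set, and CDK4 fell. On a TPM scale (FPKM rescaled to the same sum in every library), which moved the median of all genes to between -0.14 and -0.08, 12, 10, 11, 15 and 7 G1/S genes rose and 2 fell, where 19.8%, 16.4%, 17.2%, 15.9% and 16.9% of all genes rose and 33.0%, 38.7%, 30.8%, 34.5% and 34.0% fell.

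GINS2, a subunit of the GINS complex that activates the replicative helicase, showed the largest difference of the G1/S genes (chr16:85676198-85690073). GINS2 had 4.56, 4.91 and 4.78 FPKM with glyphosate, 5.18, 4.73 and 4.85 FPKM with AMPA, 4.97, 4.598 and 4.75 FPKM with 2,4-D, 4.71, 4.87 and 5.13 FPKM with glyphosate+2,4-D and 4.503, 4.07 and 4.03 FPKM with AMPA+2,4-D. Unexposed cells had 2.97, 3.36 and 2.78 FPKM in replicates 4 to 6 and 2.097, 1.64 and 1.68 FPKM in replicates 1 to 3. The exposed libraries lay at or above 4.03 FPKM and the unexposed ones at or below 3.36 FPKM. The log2 difference from all unexposed libraries was 0.63 to 0.82 over the 5 exposures (SE 0.12; limma adjusted p between 2.05e-05 and 0.000338), and against replicates 4 to 6 alone it was 0.37 to 0.56.

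The MCM helicase is a ring of 6 related subunits, MCM2 to MCM7, that unwinds DNA at the fork. MCM7 had 26.8, 25.7 and 28.4 FPKM with glyphosate, 29.1, 27.3 and 28.7 FPKM with AMPA, 29.5, 27.2 and 27.2 FPKM with 2,4-D, 27.2, 27.8 and 28.1 FPKM with glyphosate+2,4-D and 25.4, 26.98 and 24.1 FPKM with AMPA+2,4-D. Unexposed cells had 22.4, 21.8 and 21.7 FPKM in replicates 4 to 6 and 17.9, 16.1 and 16.4 FPKM in replicates 1 to 3. Every exposed library lay above every unexposed one for MCM7 (chr7:100092728-100101940), and the log2 difference was 0.39 to 0.54 (SE 0.09; limma adjusted p between 5.21e-05 and 0.00127). MCM3 rose by 0.38 to 0.47 and MCM4 by 0.37 to 0.46 with every exposure. MCM2 (chr3:127598223-127622436) ranged over exposed libraries from 7.47 to 9.95 FPKM (median 9.04); unexposed cells had 7.904, 7.63 and 7.46 FPKM in replicates 4 to 6 and 4.96, 5.33 and 4.01 FPKM in replicates 1 to 3. Its difference was 0.29 to 0.55 (SE 0.14), past the threshold with each exposure but AMPA+2,4-D (limma adjusted p = 0.0903), and there it passed when 1 of unexposed replicates 4, 5 or 6 was left out (adjusted p between 0.0316 and 0.0474). MCM5 rose with 3 exposures and MCM6 with 3, over ranges of 0.18 to 0.48 and 0.18 to 0.33. The calls of MCM6 were lost without any single glyphosate replicate, without 2,4-D replicate 1 or 2, without glyphosate+2,4-D replicate 2, and, for the first 2 exposures, without unexposed replicate 1, 2 or 3. MCM6 passed with AMPA without AMPA replicate 2 and with AMPA+2,4-D without AMPA+2,4-D replicate 2 or unexposed replicate 4 or 6, and MCM5 with 2,4-D without unexposed replicate 4, 5 or 6.

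Origins are licensed when ORC1 binds them and CDC6 and CDT1 load the MCM ring, and of these genes ORC1 and CDC6 passed in opposite directions. CDC6 ranged over exposed libraries from 5.698 to 7.26 FPKM (median 6.27); unexposed cells had 6.86, 7.36 and 6.53 FPKM in replicates 4 to 6 and 7.33, 8.55 and 8.62 FPKM in replicates 1 to 3. It fell with glyphosate, AMPA and AMPA+2,4-D, by a log2 difference of -0.29 at the lowest (SE 0.08), and in no comparison did it rise. The call with glyphosate was lost without glyphosate replicate 3 (limma adjusted p = 0.0746), and that with AMPA+2,4-D without any of 4 single libraries (AMPA+2,4-D replicates 2 and 3, unexposed replicates 2 and 3; adjusted p between 0.0556 and 0.188). CDT1 ranged over exposed libraries from 17.4 to 23.2 FPKM (median 19.8), above unexposed replicates 1 to 3 and overlapping replicates 4 to 6. Its difference of 0.20 to 0.42 from all unexposed libraries (SE 0.24) passed with no exposure. Against replicates 1 to 3 it rose with every exposure, by 0.76 to 0.98, and against replicates 4 to 6 it fell with AMPA+2,4-D alone. ORC1 rose with 2,4-D and glyphosate+2,4-D, and both calls were lost when 1 of several single libraries was left out, with adjusted p between 0.0521 and 0.187. These libraries were 2,4-D replicates 1 and 3 and unexposed replicates 1, 2 and 3 for the first call, and glyphosate+2,4-D replicates 2 and 3 and unexposed replicates 2 and 3 for the second. ORC1 passed with AMPA without unexposed replicate 4, 5 or 6, and with AMPA+2,4-D without AMPA+2,4-D replicate 3 or unexposed replicate 4 or 6. CDC6 likewise passed with 2,4-D without unexposed replicate 4 or 6 and with glyphosate+2,4-D without unexposed replicate 6.

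PCNA, the sliding clamp that tethers DNA polymerase, was the most abundant member. PCNA had 121, 117 and 114 FPKM with glyphosate, 119, 109 and 118 FPKM with AMPA, 122, 111 and 120.4 FPKM with 2,4-D, 119.8, 127 and 121 FPKM with glyphosate+2,4-D and 114, 114 and 117 FPKM with AMPA+2,4-D. Unexposed cells had 107, 109 and 106 FPKM in replicates 4 to 6 and 75.3, 73.3 and 67.8 FPKM in replicates 1 to 3. Exposed libraries lay above both sets for PCNA (chr20:5114953-5126626), with 109.3 FPKM in the lowest exposed library against 108.6 FPKM in the highest unexposed one. The log2 difference was 0.38 to 0.47 (SE 0.12; limma adjusted p between 0.00403 and 0.0152), against 0.10 to 0.19 from replicates 4 to 6. The call with AMPA+2,4-D was lost without AMPA+2,4-D replicate 3 (adjusted p = 0.0519), and on the TPM scale PCNA passed with 3 of the 5 exposures.

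Of the genes that supply deoxynucleotides, RRM1, the large subunit of ribonucleotide reductase (chr11:4094707-4138876), ranged over exposed libraries from 7.38 to 10.2 FPKM (median 8.53); unexposed cells had 6.54, 7.29 and 6.97 FPKM in replicates 4 to 6 and 4.86, 5.23 and 4.76 FPKM in replicates 1 to 3. Exposed libraries did not overlap unexposed ones, and RRM1 rose by 0.37 to 0.58 (SE 0.10; limma adjusted p between 0.000122 and 0.00475). RRM2, the small subunit, rose with AMPA and glyphosate+2,4-D, and both calls were lost without single libraries, namely AMPA replicate 1 or 3 and glyphosate+2,4-D replicate 2. It passed with glyphosate and 2,4-D without unexposed replicate 4, 5 or 6. TYMS, thymidylate synthase, rose with every exposure by 0.19 to 0.35, the call with AMPA+2,4-D being lost without AMPA+2,4-D replicate 1 (adjusted p = 0.145).

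Among the cyclins and kinases that start S phase, CDK2 (chr12:55966769-55972784) ranged over exposed libraries from 5.598 to 6.94 FPKM (median 6.41); unexposed cells had 4.65, 4.11 and 4.43 FPKM in replicates 4 to 6 and 3.99, 4.14 and 4.56 FPKM in replicates 1 to 3. The unexposed sets overlapped for CDK2, and every exposed library lay above them. Its difference was 0.43 to 0.53 (SE 0.06; limma adjusted p between 5.63e-07 and 5.38e-06) and nearly the same against either set, 0.41 to 0.51 from replicates 4 to 6 and 0.46 to 0.55 from replicates 1 to 3. CDC25A, the phosphatase that activates CDK2, rose by 0.37 to 0.56 with every exposure, the call with AMPA being lost without AMPA replicate 1 (adjusted p = 0.0512).

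CDK4, the partner of cyclin D (chr12:57747727-57756013), went the other way. CDK4 had 42.1, 40.1 and 40.96 FPKM with glyphosate, 44.2, 40.6 and 41.4 FPKM with AMPA, 43.5, 44.4 and 43.7 FPKM with 2,4-D, 42.2, 47.04 and 44.6 FPKM with glyphosate+2,4-D and 43.8, 44.3 and 41.5 FPKM with AMPA+2,4-D. Unexposed cells had 47.4, 54.6 and 48.98 FPKM in replicates 4 to 6 and 58.9, 59.00 and 58.96 FPKM in replicates 1 to 3. Every exposed library lay below every unexposed one, and replicates 1 to 3 lay above replicates 4 to 6. The log2 difference was -0.40 to -0.28 (SE 0.06; limma adjusted p between 4.17e-05 and 0.00126). Its exons overlap those of TSPAN31 on the opposite strand, and the labels do not say whether counting used strand.

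The G1/S cyclins passed with fewer exposures. CCND1, cyclin D1 (chr11:69641087-69654474), ranged over exposed libraries from 27.7 to 30.7 FPKM (median 28.8); unexposed cells had 28.3, 27.4 and 26.2 FPKM in replicates 4 to 6 and 28.1, 26.5 and 25.7 FPKM in replicates 1 to 3. Its difference of 0.08 to 0.12 (SE 0.04) passed with AMPA, 2,4-D and also AMPA+2,4-D by limma (adjusted p between 0.0185 and 0.0484), but each of these calls was lost without any of 2 to 7 single libraries, among them AMPA replicates 1 and 3, each of the 3 2,4-D replicates, AMPA+2,4-D replicates 2 and 3 and unexposed replicates 2, 3, 5 and 6. With glyphosate it passed without unexposed replicate 1 or 4. On the TPM scale the difference was -0.04 to 0.01 and passed with no exposure. CCND3, cyclin D3, rose with AMPA and glyphosate+2,4-D, the second call being lost without glyphosate+2,4-D replicate 2. CCNE1, cyclin E1 (chr19:29811898-29824308), ranged over exposed libraries from 5.13 to 7.26 FPKM (median 6.04); unexposed cells had 5.32, 6.44 and 4.98 FPKM in replicates 4 to 6 and 5.196, 6.805 and 5.71 FPKM in replicates 1 to 3. It passed with glyphosate+2,4-D alone (0.19, SE 0.08; limma adjusted p = 0.0475), a call that was lost without any of 6 single libraries (glyphosate+2,4-D replicates 2 and 3; unexposed replicates 1, 3, 4 and 6). CCNE2, cyclin E2, missed the filter at 0.414 to 0.879 FPKM in exposed and 0.585 to 0.860 FPKM in unexposed libraries, 32 to 83 reads in each, and the ranges overlapped. Its exons also overlap INTS8 on the opposite strand.

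E2F1, the E2F factor that activates S phase genes (chr20:33675683-33686404), passed with 4 of the 5 exposures. E2F1 had 13.9, 13.1 and 12.3 FPKM with glyphosate, 14.7, 13.1 and 13.5 FPKM with AMPA, 13.1, 11.04 and 11.1 FPKM with 2,4-D, 12.3, 12.3 and 12.4 FPKM with glyphosate+2,4-D and 10.2, 11.8 and 8.95 FPKM with AMPA+2,4-D. Unexposed cells had 10.3, 10.6 and 9.29 FPKM in replicates 4 to 6 and 5.64, 6.61 and 5.98 FPKM in replicates 1 to 3. Replicates 1 to 3 of unexposed cells lay below all other libraries, and exposed libraries overlapped replicates 4 to 6 in AMPA+2,4-D cells only. The log2 difference was 0.35 to 0.74 (SE 0.15) and passed with each exposure but AMPA+2,4-D (limma adjusted p = 0.0608), which passed when unexposed replicate 4, 5 or 6 was left out (adjusted p between 0.0169 and 0.0417). The call with 2,4-D was lost without 2,4-D replicate 1 (adjusted p = 0.0506), and against replicates 4 to 6 E2F1 rose with 3 exposures. E2F2, its close relative, rose with glyphosate, 2,4-D and glyphosate+2,4-D, each call being lost without any of 2 to 6 single libraries: any glyphosate or 2,4-D replicate or unexposed replicate 1, 2 or 3 for those 2 exposures, and glyphosate+2,4-D replicate 1 or 2 for the mixture. It passed with AMPA without unexposed replicate 4, 5 or 6.

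**Figure D3:**
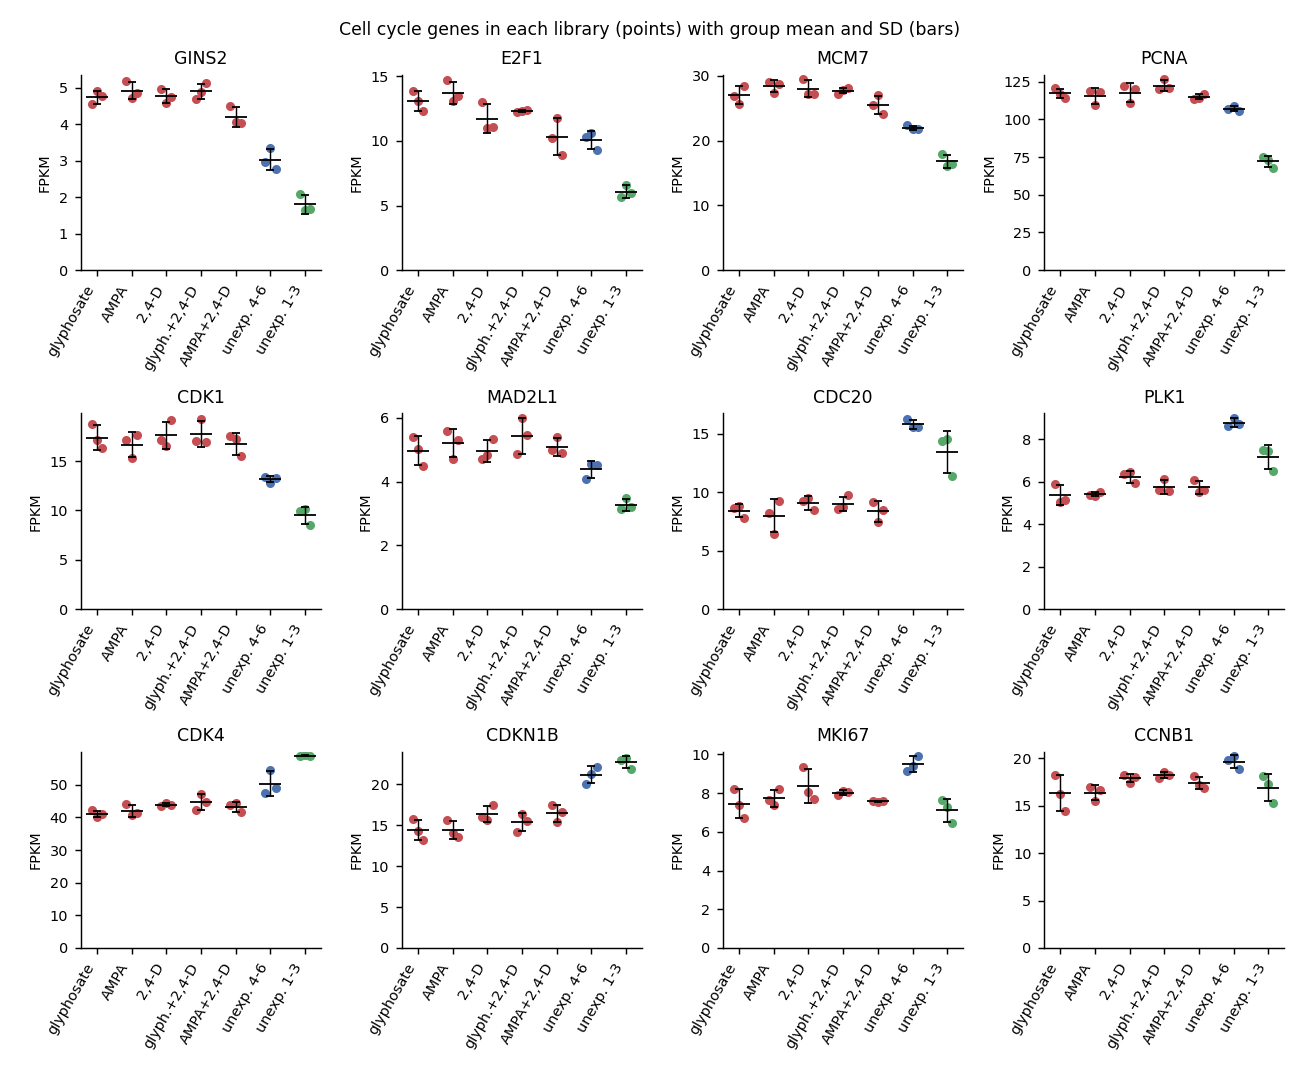
FPKM of 12 members in each library (points), with group mean and SD (bars, n = 3), from G1/S genes (GINS2, E2F1, MCM7, PCNA), G2/M genes (CDK1, MAD2L1, CDC20, PLK1, MKI67, CCNB1), CDK4 and the inhibitor CDKN1B; each axis starts at 0. CDK1 lies at or above 15.3 FPKM in exposed cells and at or below 13.4 FPKM in unexposed cells, while CDC20 lies at or below 9.73 FPKM in exposed cells and at or above 11.4 FPKM in unexposed cells.

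G2/M genes were divided. By limma at an adjusted p under 0.05, 2 of 24 rose and 5 fell with glyphosate, 2 rose and 5 fell with AMPA, 4 rose and 5 fell with 2,4-D, 3 rose and 4 fell with glyphosate+2,4-D, and 2 rose and 5 fell with AMPA+2,4-D, shares below those of all genes. The median log2 differences were -0.03, 0.00, 0.07, 0.02 and 0.03. CDK1 and MAD2L1 rose with every exposure, CDC20, AURKA, AURKB and PLK1 fell with every exposure, and 15 of 24 passed in neither direction with any exposure.

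Here the unexposed set turned the count. Against replicates 4 to 6, 14, 12, 6, 8 and 11 G2/M genes fell with glyphosate, AMPA, 2,4-D, glyphosate+2,4-D and with AMPA+2,4-D. There 23.6%, 23.3%, 21.3%, 21.3% and 23.4% of all genes fell, so the share with 2,4-D was near that of all genes. In the same comparisons 1 or 2 G2/M genes rose, where 24.6 to 27.3% of all genes rose. Against replicates 1 to 3, 6, 11, 15, 13 and 10 rose, where 29.4%, 30.0%, 27.6%, 27.9% and 28.1% of all genes rose. The share that rose with glyphosate was thus below that of all genes. Another 4, 5, 2, 2 and 4 fell, where 25.9 to 27.5% of all genes fell. CDK1 rose and CDC20 and PLK1 fell with every exposure against either set. On the TPM scale 2 rose with each exposure, where 15.9 to 19.8% of all genes rose. On that scale 8, 9, 5, 5 and 7 fell, where 33.0%, 38.7%, 30.8%, 34.5% and 34.0% of all genes fell. The share of G2/M genes that fell was thus near that of all genes or below it.

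**Figure D4:**
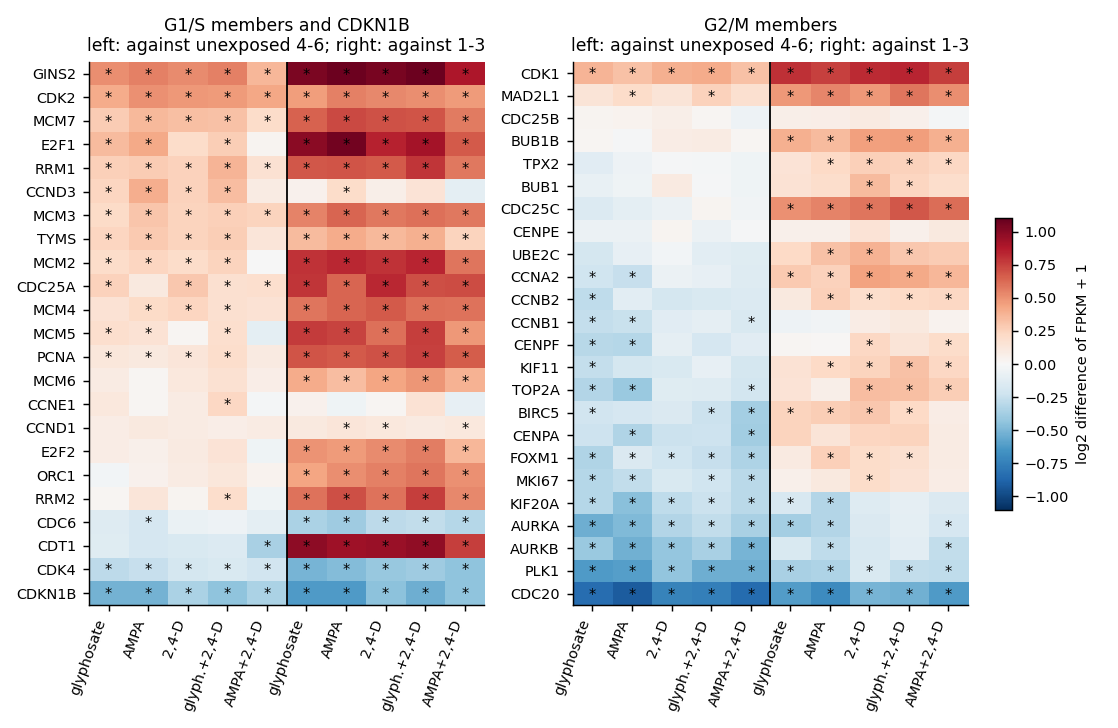
Log2 difference of FPKM + 1 (colour) of each of the 47 members tested, with the 5 exposures against unexposed replicates 4 to 6 in the left 5 columns and against unexposed replicates 1 to 3 in the right 5 columns of each panel. An asterisk marks a limma adjusted p under 0.05. G1/S genes are mostly red on both sides, and most G2/M genes turn from blue to red between them, with CDK1 red throughout and PLK1 and CDC20 blue throughout.

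CDK1, the kinase whose complex with cyclin B starts mitosis (chr10:60778331-60794852), was the G2/M gene that rose most. CDK1 had 18.7, 17.1 and 16.3 FPKM with glyphosate, 17.1, 15.3 and 17.6 FPKM with AMPA, 17.1, 16.5 and 19.2 FPKM with 2,4-D, 17.1, 19.3 and 16.9 FPKM with glyphosate+2,4-D and 17.5, 17.2 and 15.5 FPKM with AMPA+2,4-D. Unexposed cells had 13.4, 12.8 and 13.3 FPKM in replicates 4 to 6 and 9.89, 10.1 and 8.52 FPKM in replicates 1 to 3. Every exposed library lay above every unexposed one. The log2 difference was 0.53 to 0.62 (SE 0.11; limma adjusted p between 0.000157 and 0.000543), and from replicates 4 to 6 it was 0.32 to 0.40. Its promoter holds the E2F motif as well as the CHR element. Its cyclins passed with no exposure. CCNB1, cyclin B1 (chr5:69167010-69178245), ranged over exposed libraries from 14.5 to 18.5 FPKM (median 17.5); unexposed cells had 19.9, 20.2 and 18.9 FPKM in replicates 4 to 6 and 18.1, 17.3 and 15.3 FPKM in replicates 1 to 3. Its difference of -0.16 to 0.00 (SE 0.07) passed with no exposure against all unexposed libraries, and against replicates 4 to 6 it fell with 3; without unexposed replicate 3 it fell with glyphosate and AMPA (limma adjusted p = 0.0174 and 0.0125), and with glyphosate also without glyphosate replicate 1 (0.00922). CCNA2 and CCNB2, cyclins A2 and B2, and CDC25B and CDC25C, phosphatases that activate CDK1, passed with no exposure against all unexposed libraries either. Against replicates 1 to 3, CCNA2 and CDC25C rose with all 5 exposures and CCNB2 with 4, and against replicates 4 to 6, CCNA2 fell with 2 and CCNB2 with 1. CDC25C also passed with glyphosate+2,4-D without unexposed replicate 4, 5 or 6 and with AMPA+2,4-D without unexposed replicate 6.

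CDC20, the activator of the anaphase-promoting complex (chr1:43358955-43363203), showed the largest difference of all members against unexposed replicates 4 to 6. CDC20 had 8.66, 8.802 and 7.78 FPKM with glyphosate, 8.27, 6.45 and 9.27 FPKM with AMPA, 9.27, 9.55 and 8.46 FPKM with 2,4-D, 8.599, 8.71 and 9.73 FPKM with glyphosate+2,4-D and 9.19, 7.45 and 8.46 FPKM with AMPA+2,4-D. Unexposed cells had 16.3, 15.6 and 15.6 FPKM in replicates 4 to 6 and 14.4, 14.6 and 11.4 FPKM in replicates 1 to 3. No exposed library reached the lowest unexposed one. The log2 difference was -0.80 to -0.63 (SE 0.10; limma adjusted p between 3.18e-06 and 6.26e-05), -0.92 to -0.74 from replicates 4 to 6 and -0.69 to -0.51 from replicates 1 to 3. UBE2C, the ubiquitin-conjugating enzyme of the same complex, passed with no exposure, at 0.01 to 0.18, and rose with 3 against replicates 1 to 3.

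Genes of the spindle checkpoint, which restrains CDC20 until chromosomes are attached, either rose or did not pass. MAD2L1 (chr4:120055608-120067074) ranged over exposed libraries from 4.48 to 5.98 FPKM (median 5.02); unexposed cells had 4.08, 4.55 and 4.53 FPKM in replicates 4 to 6 and 3.13, 3.48 and 3.205 FPKM in replicates 1 to 3. The lowest exposed library overlapped replicates 4 to 6. MAD2L1 rose with every exposure by 0.31 to 0.42 (SE 0.09; limma adjusted p between 0.00115 and 0.0101). The call with glyphosate was lost without glyphosate replicate 1 (adjusted p = 0.0572) and that with 2,4-D without 2,4-D replicate 3 (0.0613), and against replicates 4 to 6 it rose with 2 exposures. BUB1B rose with 2,4-D and glyphosate+2,4-D and BUB1 with 2,4-D, and each call was lost without any of 3 to 5 single libraries. These were 2,4-D replicates 1 and 2 and unexposed replicates 1, 2 and 3 for BUB1B with 2,4-D, glyphosate+2,4-D replicate 2 and unexposed replicates 1 and 3 for BUB1B with the mixture, and 2,4-D replicates 1 and 3 and unexposed replicates 2 and 3 for BUB1. BUB1B passed with glyphosate and AMPA+2,4-D without unexposed replicate 4, 5 or 6.

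Of the kinases that act in mitosis, PLK1, AURKA and AURKB fell, whereas CDK1, given above, rose. PLK1 had 5.91, 5.06 and 5.15 FPKM with glyphosate, 5.399, 5.34 and 5.53 FPKM with AMPA, 6.36, 6.45 and 5.92 FPKM with 2,4-D, 5.596, 6.13 and 5.57 FPKM with glyphosate+2,4-D and 6.08, 5.54 and 5.603 FPKM with AMPA+2,4-D. Unexposed cells had 8.63, 9.02 and 8.73 FPKM in replicates 4 to 6 and 7.504, 7.46 and 6.53 FPKM in replicates 1 to 3. PLK1, polo-like kinase 1 (chr16:23677656-23690367), lay lower in every exposed library than in any unexposed one, by a log2 difference of -0.49 to -0.30 (SE 0.07; limma adjusted p between 2.33e-05 and 0.00241). AURKA, the kinase of spindle poles (chr20:56369389-56392337), ranged over exposed libraries from 11.9 to 16.7 FPKM (median 14.01); unexposed cells had 17.9, 20.4 and 18.6 FPKM in replicates 4 to 6 and 16.2, 17.8 and 16.4 FPKM in replicates 1 to 3. It fell by a log2 difference of -0.45 to -0.19 (SE 0.07). AURKB, the kinase of the chromosomal passenger complex (chr17:8204733-8210600), ranged over exposed libraries from 3.32 to 4.41 FPKM (median 3.92); unexposed cells had 5.06, 6.01 and 5.77 FPKM in replicates 4 to 6 and 5.26, 4.54 and 4.01 FPKM in replicates 1 to 3. Its difference was -0.40 to -0.23 (SE 0.08). Both overlapped unexposed replicates 1 to 3. With glyphosate+2,4-D the calls of AURKA and AURKB (limma adjusted p = 0.0329 and 0.0272) were lost without glyphosate+2,4-D replicate 1 or unexposed replicate 5 or 6, that of AURKB also without glyphosate+2,4-D replicate 3 (adjusted p between 0.0526 and 0.253), and AURKA with 2,4-D without 2,4-D replicate 2 (0.0552). Against replicates 1 to 3 AURKA fell with 3 exposures and AURKB with 2.

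Motor and centromere genes, and the markers most often read as proliferation, passed seldom. KIF20A, a kinesin of cytokinesis, fell with 4 exposures by a log2 difference of up to -0.39, of which 3 were lost without single libraries: glyphosate replicate 3, AMPA+2,4-D replicate 1, and 2,4-D replicate 2 or 3 or unexposed replicate 5 or 6 for 2,4-D. With glyphosate+2,4-D it passed without unexposed replicate 2 or 4. Its exons overlap those of BRD8 and CDC23 on the opposite strand. KIF11, TPX2, BIRC5, CENPA, CENPE and CENPF, which serve the spindle and the centromere, passed with no exposure against all unexposed libraries. Against replicates 1 to 3, KIF11, TPX2 and BIRC5 each rose with 4 exposures and CENPF with 2, and against replicates 4 to 6, BIRC5 fell with 3, CENPA and CENPF with 2 each and KIF11 with 1. MKI67, the Ki-67 antigen (chr10:128096659-128126385), ranged over exposed libraries from 6.72 to 9.38 FPKM (median 7.68); unexposed cells had 9.16, 9.42 and 9.94 FPKM in replicates 4 to 6 and 7.62, 7.26 and 6.47 FPKM in replicates 1 to 3. TOP2A, the topoisomerase that untangles sister chromatids (chr17:40388516-40417950), ranged over exposed libraries from 13.1 to 18.4 FPKM (median 16.5); unexposed cells had 18.4, 19.7 and 19.1 FPKM in replicates 4 to 6 and 14.5, 14.1 and 11.95 FPKM in replicates 1 to 3. Replicates 4 to 6 lay above replicates 1 to 3 for both genes, with the exposed libraries spread between and across the sets. FOXM1, a transcription factor of G2/M genes (chr12:2857681-2877155), ranged over exposed libraries from 4.62 to 6.097 FPKM (median 5.31); unexposed cells had 6.32, 6.94 and 6.44 FPKM in replicates 4 to 6 and 4.81, 5.08 and 4.07 FPKM in replicates 1 to 3. The differences from all unexposed libraries were -0.13 to 0.02 for MKI67, -0.17 to 0.10 for TOP2A and -0.12 to 0.05 for FOXM1 (SE 0.10, 0.11 and 0.10), and none passed; without unexposed replicate 3 TOP2A fell with AMPA (limma adjusted p = 0.0294). Against replicates 4 to 6 MKI67 fell with 4 exposures, TOP2A with 3 and FOXM1 with all 5, whereas against replicates 1 to 3 they rose with 1, 3 and 3.

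CDKN1B, p27, the inhibitor that holds cyclin E and CDK2 inactive in quiescent cells (chr12:12715058-12722371), was lower in exposed cells. CDKN1B had 15.7, 14.4 and 13.3 FPKM with glyphosate, 15.7, 14.1 and 13.6 FPKM with AMPA, 16.1, 15.6 and 17.4 FPKM with 2,4-D, 14.2, 16.4 and 15.5 FPKM with glyphosate+2,4-D and 17.4, 15.4 and 16.6 FPKM with AMPA+2,4-D. Unexposed cells had 20.1, 21.3 and 22.1 FPKM in replicates 4 to 6 and 22.9, 23.3 and 21.9 FPKM in replicates 1 to 3. Exposed and unexposed libraries did not overlap, and the unexposed sets overlapped each other. The log2 difference was -0.57 to -0.39 (SE 0.06; limma adjusted p between 6.2e-07 and 4.97e-05). CDKN2C, p18, an inhibitor of CDK4 (chr1:50960745-50974633), missed the filter; exposed libraries held 0.485 to 0.792 FPKM (median 0.568), and unexposed ones 1.254, 1.14 and 0.915 FPKM in replicates 4 to 6 and 0.483, 0.7102 and 0.669 FPKM in replicates 1 to 3. All 3 of replicates 4 to 6 exceeded every other library, on 25 to 77 reads per library.

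Other genes of the pathway outside the members were read from lists. Over the 5 exposures, 25.0 to 28.0% of all genes tested rose and 22.6 to 25.1% fell against all unexposed libraries, 24.6 to 27.3% rose and 21.3 to 23.6% fell against replicates 4 to 6, 27.6 to 30.0% rose and 25.9 to 27.5% fell against replicates 1 to 3, and 15.9 to 19.8% rose and 30.8 to 38.7% fell on the TPM scale. Of 42 tested replication genes, 17 to 25 rose and 0 to 2 fell against all unexposed libraries, with medians of 0.20 to 0.24 (9 to 19 rose and 2 to 5 fell on the TPM scale). Against replicates 4 to 6, 9 to 17 rose and 0 to 3 fell, with medians of 0.10 to 0.17. The lowest of these counts, 9 of 42, was a share below that of all genes that rose. Against replicates 1 to 3, 27 to 29 rose and 0 or 1 fell, with medians of 0.24 to 0.37. TIMELESS, of the fork protection complex, rose by 0.29 to 0.39, SLBP, which binds histone mRNA in S phase, by 0.34 to 0.44, RFC3, of the clamp loader, by 0.55 to 0.61, and MCM8, a helicase of repair, by 0.44 to 0.57. Of 48 tested mitotic genes, 15 to 22 rose and 2 to 4 fell, with medians of 0.16 to 0.22 (9 to 17 and 5 to 10 on the TPM scale). Their count depended on the set: against replicates 4 to 6, 10 to 13 rose and 6 to 9 fell, with medians of -0.002 to 0.10, near the shares of all genes, and against replicates 1 to 3, 28 to 34 rose and 1 to 4 fell, with medians of 0.27 to 0.34. ECT2, which sets the cleavage plane, rose by 0.53 to 0.65, UBE2S, of the anaphase-promoting complex, by 0.48 to 0.87, CKAP5, a microtubule polymerase, by 0.21 to 0.27, and ZWINT, a kinetochore protein, by 0.37 to 0.66. These 4 mitotic genes and the 4 replication genes were named for the smallest median p of their lists over these exposures. That they passed thus follows in part from the choice. They rose with every exposure against either unexposed set, and on the TPM scale CKAP5 passed with 4 of the 5. CDC20 and PLK1 fell in the same comparisons.

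Of 30 tested regulators of the cycle, 10 to 12 rose and 4 to 6 fell (5 to 8 and 6 to 10 on the TPM scale), not far from the shares of all genes. Against replicates 4 to 6, 9 to 11 rose and 5 to 9 fell, and against replicates 1 to 3, 13 to 20 rose and 5 to 7 fell. WEE1, the kinase that inhibits CDK1, rose by 0.79 to 1.03 and FBXW7, which targets cyclin E for destruction, by 0.49 to 0.63, while E2F5, a repressive E2F, and RBBP4, a subunit of the MuvB core, fell, with differences of -0.46 to -0.26 and -0.42 to -0.21. Of 14 tested brakes of proliferation, 7 or 8 rose and 0 to 2 fell, with medians of 0.22 to 0.35 (5 to 7 and 1 to 3 on the TPM scale). Against replicates 4 to 6, 8 rose and 1 fell with every exposure, and against replicates 1 to 3, 8 rose and 0 to 2 fell. GADD45B, a stress-induced growth-arrest gene, rose by 1.47 to 1.95, BTG3 by 0.99 to 1.11, TOB1 by 0.55 to 0.73 and CDKN2D, p19, an inhibitor of CDK4, by 0.43 to 0.73. Each of these 8 genes passed in the same direction with every exposure against either unexposed set. They too were named for the smallest median p of their lists, so this follows in part from the choice.

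No member passed between a mixture and its components in the fit of all libraries. By limma, 0 of 47 members passed in glyphosate+2,4-D against glyphosate, glyphosate+2,4-D against 2,4-D, AMPA+2,4-D against AMPA and AMPA+2,4-D against 2,4-D, where 0%, 0%, 2.71% and 0% of all genes passed in either direction. Unadjusted, 1, 0, 3 and 0 members had p under 0.05, and voom on recovered reads also called 0. The count in AMPA+2,4-D against AMPA depended on the fit, with 7 members called without unexposed replicates 1 to 3, 3 without replicates 4 to 6, 3 with the replicate block and 1 with array weights. CCND3 was lower in AMPA+2,4-D than in AMPA cells in all 4 of these fits (limma adjusted p between 0.0193 and 0.0355), and E2F1 and MCM5 (-0.27) in 3 of them. All 4 fits use the same AMPA and AMPA+2,4-D libraries, so they are not separate support. The share of all genes called in each of these fits is not given here. Without unexposed replicates 1 to 3, MCM2, GINS2 and FOXM1 were also lower and TOP2A higher, with adjusted p between 0.0222 and 0.0496; these names were taken after their values were seen. The half-width of the 95% interval had a median of 0.25 for G1/S and 0.24 for G2/M genes in these comparisons. The nearest to the threshold was CCND3, with a log2 difference of -0.31 in AMPA+2,4-D against AMPA (95% interval -0.50 to -0.12; limma adjusted p = 0.0748), followed in that comparison by CDKN1B at 0.18 (interval 0.03 to 0.33) and E2F1 at -0.39 (interval -0.75 to -0.02). AURKA stood at 0.26 in glyphosate+2,4-D against glyphosate (interval 0.09 to 0.43; adjusted p = 0.379).

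AMPA and glyphosate were given at different concentrations, 34 and 5.6 µM, so their values are set side by side. GINS2 averaged 4.92 ± 0.236 FPKM with AMPA and 4.75 ± 0.1799 FPKM with glyphosate (SD, n = 3 each), CDK1 16.7 ± 1.22 and 17.4 ± 1.24 FPKM, CDC20 7.999 ± 1.43 and 8.41 ± 0.553 FPKM, and CDKN1B 14.4 ± 1.12 and 14.4 ± 1.248 FPKM. No member passed in a fit of AMPA against glyphosate, where 0% of all genes passed and 0 members had an unadjusted p under 0.05.

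The interaction of the 2 compounds of a mixture, defined as the mixture plus unexposed minus both single exposures, passed for 13 of 47 members for glyphosate with 2,4-D, against 33.6% of all genes, and for 19 for AMPA with 2,4-D, against 36.7%. In each of them its sign was opposite to that of the single exposures. Where a mixture lies near its components, the interaction lies near minus a single exposure's difference. No member passed between a mixture and its components in this fit, so this sign follows from the definition and is not a separate result. GINS2 had interactions of -0.74 with glyphosate and -0.97 with AMPA, and CDC20 of 0.72 and 0.69. The unexposed libraries enter both interactions and every exposure comparison.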

How the data were processed

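RNA sequencing of 21 C3A libraries was deposited as 6 tables of FPKM per gene. The authors aligned reads with HISAT2 2.0.5 and counted them with featureCounts 1.5.0-p3 on GRCh38, per the submitters' processing notes; the labels' protocols name a SMARTer kit for library preparation. The read total behind the deposited FPKM and the use of strand are not given in the sources used here. Whole reads were recovered from the steps of the FPKM values to give depth. Here, log2(FPKM + 1) of 13405 genes present in all 6 tables, with at least 1 FPKM in at least 3 libraries, was fitted with group means over all 21 libraries by limma 3.58.1 (R 4.3.3), with a mean-variance trend and Benjamini-Hochberg adjustment within each comparison. Of the members, 47 of 49 passed that filter. A gene was called at an adjusted p under 0.05. Fold changes on this scale understate the change of low genes. A fit on all genes was tested on simulated data. The simulated unexposed libraries shared 1 mean per gene, so that test does not cover the split between the unexposed sets. The members, lists and the split of the unexposed libraries were chosen with earlier results of these data known. Genes given in full were the 6 with the largest median difference in each phase among those called in at least 3 exposures, with a fixed set of cycle genes, and the 4 with the smallest median p of each further list. Promoters came from RefSeq (GRCh38.p14). Alternatives covered the pseudocount, filter, scaling, unexposed set, each library left out, and the replicate block.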

Additional observations from a re-analysis of the deposited data

Results flagged for a closer look

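CDC25B, a phosphatase that activates CDK1, had 1 unexposed library at 11.1 FPKM, further from the other 5 than Dixon's critical value allows for 6 samples. Chance gives such a gap in about 1 in 20 groups.

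The interaction of glyphosate with 2,4-D (mixture plus unexposed minus both single exposures, log2 scale) passed by limma for 13 members. It was 0.42 for CDK4, 0.72 for CDC20, 0.5 for AURKA, 0.36 for AURKB, 0.39 for PLK1 and 0.49 for CDKN1B, all genes that fell with the single exposures. It was -0.45 for CDK2, -0.64 for CDC25A, -0.36 for MCM3, -0.43 for MCM4, -0.48 for MCM7, -0.74 for GINS2 and -0.58 for CDK1, all genes that rose.

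The interaction of AMPA with 2,4-D passed for 19 members. It was 0.34 for CDK4, 0.69 for CDC20, 0.37 for AURKA, 0.37 for PLK1, 0.38 for KIF20A and 0.58 for CDKN1B. Among G1/S genes it was -0.47 for CCND3, -0.58 for CDK2, -0.48 for CDC25A, -0.91 for E2F1, -0.74 for MCM2, -0.47 for MCM3, -0.5 for MCM4, -0.58 for MCM5, -0.67 for MCM7, -0.97 for GINS2, -0.58 for RRM1 and -0.46 for TYMS, and it was -0.6 for CDK1. All genes tested passed at shares of 33.6% and 36.7% in the 2 interactions. Where a mixture lies near its components, the sign of the interaction follows from its definition.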

How the results depend on the processing

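Of 2100 alternative values of 21 named genes, 1954 kept their side of the threshold without a reversal of a called value (71 of them changed sign while past the threshold in neither fit), 84 no longer passed, 52 newly passed and 10 reversed. TOP2A with AMPA+2,4-D was -0.20 and FOXM1 with AMPA -0.16 without unexposed replicates 1 to 3. FOXM1 was 0.20 with 2,4-D and 0.17 with glyphosate+2,4-D, both without unexposed replicates 4 to 6 and with the replicate block. CCND1 was -0.043 with AMPA and -0.0056 with AMPA+2,4-D on the TPM scale, and -0.021 and -0.0004 scaled to recovered reads (chosen after seeing the data), which moved the median of all genes to between -0.10 and -0.07. The cause was not tested.

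Counts of G2/M genes called moved to 15 with glyphosate, 14 with AMPA and 12 with AMPA+2,4-D without unexposed replicates 1 to 3. Without replicates 4 to 6 they were 16 with AMPA, 17 with 2,4-D, 15 with glyphosate+2,4-D and 14 with AMPA+2,4-D, and G1/S genes numbered 20 with AMPA+2,4-D. With the replicate block, in which replicates 4 to 6 have no partner, the same counts were 16, 17, 15, 14 and 19. Over the exposures, 24.6 to 27.3% of all genes rose and 21.3 to 23.6% fell without unexposed replicates 1 to 3. Without replicates 4 to 6, 27.6 to 30.0% rose and 25.9 to 27.5% fell. With the block, 3656 to 3969 of 13405 genes rose and 3398 to 3638 fell. Replicate numbers did not pair the samples (correlations of same-numbered libraries -0.119 to 0.088). On the TPM scale 11 G2/M genes passed with AMPA, where 16.4% of all genes rose and 38.7% fell. With no filter, or with only the groups compared in the fit, 4 passed with glyphosate+2,4-D, and in that last fit 9 G1/S genes passed with 2,4-D. Of 28808 genes with no filter, 3468 to 4090 rose and 3115 to 3585 fell over the exposures. With only the groups compared, 2774 to 3323 of 13405 genes rose and 2528 to 2910 fell. Scaled to recovered reads, 7 to 15 G1/S genes rose and 2 fell over the exposures. On that scale 2276 to 2680 of 13405 genes rose and 4252 to 5005 fell. AMPA+2,4-D against AMPA gave 3 members with the block, 1 with array weights, and 7 and 3 without unexposed replicates 1 to 3 and 4 to 6. Interactions gave 28 and 34 members with the block and 29 and 34 without replicates 4 to 6. For AMPA+2,4-D against AMPA and for the interactions, the shares of all genes in these fits are not given here.

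Leaving out 1 library gave 13 to 18, 14 to 19, 11 to 19, 13 to 19 and 10 to 16 G1/S genes and 6 to 8, 7 to 9, 6 to 9, 5 to 9 and 6 to 9 G2/M genes for glyphosate, AMPA, 2,4-D, glyphosate+2,4-D and with AMPA+2,4-D, 0 to 0 between exposures, and 10 to 16 and 17 to 23 interactions. The shares of all genes called in these leave-one-out fits are not given here, so the ranges show only how the counts moved. With no library left out, 33.6% and 36.7% of all genes passed in the 2 interactions. CCNE2 and CDKN2C rest on 25 to 83 reads per library.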
